A study of Mus musculus with 4 samples.

Results

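Heavy-chain variable segments are the gene segments whose symbols start with Ighv, and 185 of the 31053 gene rows in each of the 4 count matrices carried such a symbol. The study profiled CD45+ leukocytes, the immune cells that carry the common leukocyte antigen CD45, sorted from the colon of wild-type C57BL/6 mice, by droplet single-cell RNA sequencing. The control group had 2 libraries, called here control 1 and control 2, and the stress group had 2 libraries from mice restrained daily for 7 days, called here stress 1 and stress 2. Whether a library came from 1 mouse or from pooled mice, and the age and sex of the mice, are not given in the sources used here, so p-values below measure only the spread between these libraries. Transcripts were counted as unique molecular identifiers (UMIs), which count captured molecules and not sequencing copies.

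A B cell builds its heavy-chain gene by joining 1 variable segment to a diversity and a joining segment, and this choice is then inherited by its progeny. The variable segment encodes most of the part of the antibody chain that contacts antigen. Plasma cells are the antibody-secreting descendants of B cells, and those of the gut mostly secrete IgA, whose heavy-chain constant region is encoded by Igha. When a B cell divides and its progeny become plasma cells, many cells carry the same variable segment together with the same light-chain segment. Naive B cells, in contrast, carry segments in proportions set largely by recombination and by early selection.

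Plasma cells were taken as cells in which Jchain, the joining chain of polymeric antibodies, held at least 0.5% of UMIs and Mzb1, Derl3, Tnfrsf17 and Txndc5 together held at least 3 UMIs. This gave 204 plasma cells in control 1, 157 in control 2, 987 in stress 1 and 668 in stress 2. B cells were cells outside that class with at least 2 UMIs of Cd79a and Cd79b, which encode the signalling chains of the B cell receptor, and they numbered 928, 2821, 3745 and 1852. Each cell was assigned the segment with most UMIs, and cells with a tie or with no segment UMI were left unassigned. Raising the Jchain limit from 0.5% to 1% would have removed 4 plasma cells in each stress library and none in the controls, and between 1 and 6 cells per library fell just below the limit, with a Jchain share of 0.25% to 0.5%. Cells on either side of the limit had a median of at most 0.5 segment UMIs.

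All 12 plasma cell markers were present in the plasma cells, at different frequencies. Sdc1, the plasma cell surface proteoglycan, had a UMI in 79.8% to 91.7% of plasma cells per library, and Xbp1, a transcription factor of secretory cells, in 99.1% to 100%. Prdm1 had a UMI in 31.8% to 51.0%. Prg2 had one in 55.4% and 59.9% of plasma cells in the controls and in 19.4% and 34.3% in the stress libraries. The remaining markers of the list were each in 60.8% to 100%. Pax5, which maintains B cell identity, had a UMI in 0% to 5.73% of plasma cells and in 35.8% to 52.4% of B cells. Cd37, of the same B cell list, had one in 36.5% to 50.9% of plasma cells and in 74.1% to 92.1% of B cells. All 8 T cell markers were present in the plasma cells at a summed level of 75.1 to 201 CPM (UMIs scaled to a common library total), highest in control 2. The 12 B cell markers summed to 2315 and 1768 CPM in the plasma cells of the controls and to 1133 and 1289 in those of the stress libraries, of which Cd74, an antigen presentation gene, made up 2259, 1664, 1050 and 1230. A list of 9 myeloid markers summed to 956 CPM in the B cells of control 1 and to 155, 348 and 474 in those of control 2, stress 1 and stress 2. A list of 4 fibroblast markers summed to 130 CPM in the B cells of control 1 and to at most 21.0 in the other libraries. Of 4 epithelial markers, Epcam had a UMI in 52.3% to 66.0% of plasma cells, and Krt8, Krt20 and Muc2 in at most 0.749%. The part of these other cell types in the results below was not tested. Barcodes common to 2 libraries numbered 3 to 11 per pair of libraries, at most 0.241% of the smaller library, and libraries of 2494 to 7765 retained cells held 12015018 to 33757556 UMIs.

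The segments lie on chromosome 12 between positions 113572927 and 116010093 of the mouse genome build GRCm38 (mm10), 183 rows on the minus strand and 2 on the plus strand. Of the 185 rows, 113 are annotated as V genes, 70 as V pseudogenes and 2 as further immunoglobulin segments. A UMI in any retained cell was found for 118 rows, and 67 rows, 52 of them pseudogenes, were at 0. V genes held 99.6% of the segment UMIs of plasma cells. Plasma cells were assigned to 92 segments and B cells to 93. In plasma cells, 36 segments were seen in all 4 libraries and 14 in a single library.

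The germline sequences of 6 segments are shown because they led a library, ranked high in all of them, or differed between the groups. Each is the V exon, taken from the end of the GENCODE vM21 transcript, 5′ to 3′, and capitals mark bases that differ from the most similar other Ighv member.
Ighv1-47: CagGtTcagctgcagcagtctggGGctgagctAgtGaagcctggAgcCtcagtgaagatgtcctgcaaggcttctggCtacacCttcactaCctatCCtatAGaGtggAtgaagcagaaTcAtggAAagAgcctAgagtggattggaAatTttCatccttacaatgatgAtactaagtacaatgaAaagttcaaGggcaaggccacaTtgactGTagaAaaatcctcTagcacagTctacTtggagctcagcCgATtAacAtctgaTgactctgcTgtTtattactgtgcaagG
Ighv1-12: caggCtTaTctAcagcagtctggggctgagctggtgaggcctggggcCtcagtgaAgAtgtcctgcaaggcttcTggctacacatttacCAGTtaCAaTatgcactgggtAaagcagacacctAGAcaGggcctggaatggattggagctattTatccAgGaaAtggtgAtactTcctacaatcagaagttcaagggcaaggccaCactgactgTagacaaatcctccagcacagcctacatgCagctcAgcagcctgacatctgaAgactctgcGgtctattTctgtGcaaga
Ighv3-6: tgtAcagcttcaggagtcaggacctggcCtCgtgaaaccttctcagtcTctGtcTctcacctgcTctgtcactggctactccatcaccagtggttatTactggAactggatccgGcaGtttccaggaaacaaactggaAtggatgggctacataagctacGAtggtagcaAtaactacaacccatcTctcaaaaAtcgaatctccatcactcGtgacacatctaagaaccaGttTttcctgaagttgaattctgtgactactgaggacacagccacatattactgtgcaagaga
Ighv1-76: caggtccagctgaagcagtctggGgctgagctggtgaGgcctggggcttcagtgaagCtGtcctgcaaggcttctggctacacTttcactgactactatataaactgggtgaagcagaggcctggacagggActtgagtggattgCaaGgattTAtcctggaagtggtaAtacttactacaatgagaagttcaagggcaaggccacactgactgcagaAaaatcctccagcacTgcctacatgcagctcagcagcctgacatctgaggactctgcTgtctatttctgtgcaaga
Ighv1-64: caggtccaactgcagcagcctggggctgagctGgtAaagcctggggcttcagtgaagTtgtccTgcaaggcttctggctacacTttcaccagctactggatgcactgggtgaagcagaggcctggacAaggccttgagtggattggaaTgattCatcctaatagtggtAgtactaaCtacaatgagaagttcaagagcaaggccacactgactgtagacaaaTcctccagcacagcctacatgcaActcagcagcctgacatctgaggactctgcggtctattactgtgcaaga
Ighv1-42: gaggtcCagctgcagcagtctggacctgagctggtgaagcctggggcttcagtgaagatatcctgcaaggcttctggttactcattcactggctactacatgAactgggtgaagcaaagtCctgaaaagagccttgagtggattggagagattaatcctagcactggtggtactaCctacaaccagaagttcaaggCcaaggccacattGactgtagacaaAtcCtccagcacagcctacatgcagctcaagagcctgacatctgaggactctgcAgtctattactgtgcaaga

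Ighv1-47 (chr12:114991108-114991580) differs from its closest relative, Ighv1-14, at 46 bases, an identity of 84.4%. Ighv1-12 (chr12:114615850-114616318) differs from Ighv1-15 at 34 bases, and Ighv3-6 (chr12:114288152-114288582) from Ighv3-1 at 20. Ighv1-76 (chr12:115847881-115848331), Ighv1-64 (chr12:115507545-115508031) and Ighv1-42 (chr12:114937113-114937544) stand closer to a neighbour, with 14, 12 and 9 differing bases. Over the 113 V genes the median identity to the closest relative was 95.2%, 2 were identical to another, and 12 were above 98% identity. Counts of such close pairs, and of segments whose reads carry somatic mutations, depend on how the authors' counting placed reads that fit several segments.

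Segment UMIs were found in nearly all plasma cells. At least 1 was present in 92.6% of plasma cells of control 1, 94.9% of control 2, 91.1% of stress 1 and 94.6% of stress 2, with medians of 8.5, 6, 4 and 9 segment UMIs per cell. The leading segment held at least 80% of a cell's segment UMIs in 84.9% to 90.5% of assigned plasma cells. Assigned plasma cells numbered 181, 147, 863 and 616. Median depth was 17916.5, 18552, 12243 and 22807 UMIs per plasma cell in the same order, so stress 1 was the library with the lowest depth and the lowest segment count per cell.

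B cells gave far fewer segment UMIs. A segment UMI was present in 11.9% of B cells of control 1, 10.2% of control 2, 6.97% of stress 1 and 17.1% of stress 2, at median depths of 2161.5, 2352, 1686 and 3415.5 UMIs per cell. When all cells were thinned to 1000 UMIs, the shares were 49.0%, 38.9%, 32.9% and 36.7% in plasma cells and 4.87%, 4.61%, 3.14% and 6.03% in B cells. This left out 0, 0, 1 and 3 plasma cells and 25, 110, 406 and 43 B cells that were shallower. T cells, which do not rearrange this locus productively, served as the measure of free RNA: 1.18%, 0.544%, 1.62% and 2.88% of them had a segment UMI at median depths of 3073, 3542, 2228 and 4559. The B cell shares were above the T cell shares in every library although the T cells were deeper. Most B cell assignments, 91.3% to 94.5%, rest on 1 UMI.

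**Figure D1:**
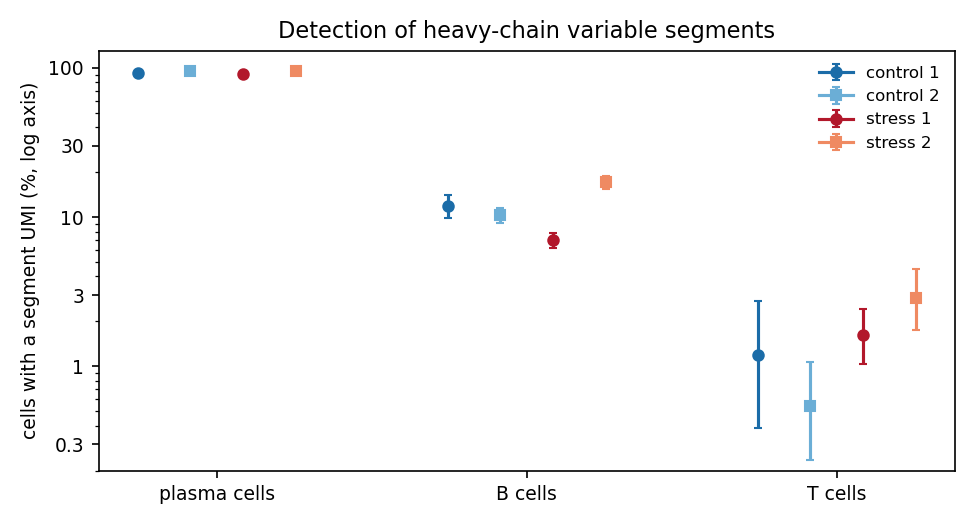
Share of plasma, B and T cells with at least 1 heavy-chain variable segment UMI in each library, on a log axis, with exact 95% binomial intervals that cover counting error only. Plasma cells lie between 91.1% and 94.9%, B cells between 6.97% and 17.1%, and T cells between 0.544% and 2.88%.

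The segments together held a small part of plasma cell RNA. They made up 0.0860% of plasma cell UMIs in control 1, 0.0492% in control 2, 0.0514% in stress 1 and 0.0809% in stress 2, or 3.65 to 6.03 segment UMIs per 1000 UMIs of the heavy-chain constant genes. The groups overlapped, with means of 0.0676% ± 0.0260 (SD, n = 2) in control and 0.0662% ± 0.0209 (SD, n = 2) in stress, and the two-sided exact permutation test gave p = 1. That test cannot give a p below 0.333 with 2 libraries against 2. A single cell could weigh on this measure: 1 plasma cell of stress 2 held 1601 UMIs of Ighv1-19, 11.7% of all segment UMIs of that library's plasma cells and 69.7% of those of Ighv1-19. Without the plasma cell with most segment UMIs in each library, the shares were 0.0831%, 0.0480%, 0.0487% and 0.0716%.

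Ighv1-64 was the most used segment of plasma cells when libraries were weighted equally, with a mean of 6.38% of assigned plasma cells. Its share was 6.63% in control 1, 7.48% in control 2, 4.75% in stress 1 and 6.66% in stress 2, so it ranked first or second in every library and its groups overlapped. Ighv1-76 followed with 4.42%, 6.12%, 3.13% and 6.82%, and also overlapped between groups. Ighv3-6 made up 4.42%, 4.08%, 5.56% and 4.06%, the narrowest range among the 4 leading segments. Ighv1-81 was at 2.76%, 3.40%, 3.94% and 6.66%, with both stress libraries above both controls but stress 1 close to control 2.

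The segment at the top differed from library to library. Ighv1-47 led control 1 with 27 of 181 assigned plasma cells (14.9%, exact 95% interval 10.1% to 21.0%). Ighv1-12 and Ighv1-64 each took 11 of 147 cells in control 2 (7.48%, 3.79% to 13.0%). Ighv3-6 led stress 1 with 48 of 863 cells (5.56%, 4.13% to 7.31%), and Ighv1-76 led stress 2 with 42 of 616 (6.82%, 4.96% to 9.10%). The 10 leading segments held 49.2%, 52.4%, 36.5% and 44.3% of assigned plasma cells in control 1, control 2, stress 1 and stress 2, lowest in stress 1; these sums over the top of a list also move with the number of cells.

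The remaining segments among the 12 most used had mean shares of 3.35% for Ighv1-26, 2.95% for Ighv1-82, 2.87% for Ighv8-12, 2.76% for Ighv1-12, 2.39% for Ighv1-9, 2.36% for Ighv5-17 and 2.30% for Ighv1-53. Ighv1-9 was at 1.66% and 1.36% in the controls and at 3.13% and 3.41% in the stress libraries, without overlap, from 3 and 2 control cells. Ighv8-12 and Ighv1-53 were highest in control 2, at 5.44% and 4.76%, and at most 2.76% and 1.95% in the other libraries.

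**Figure D2:**
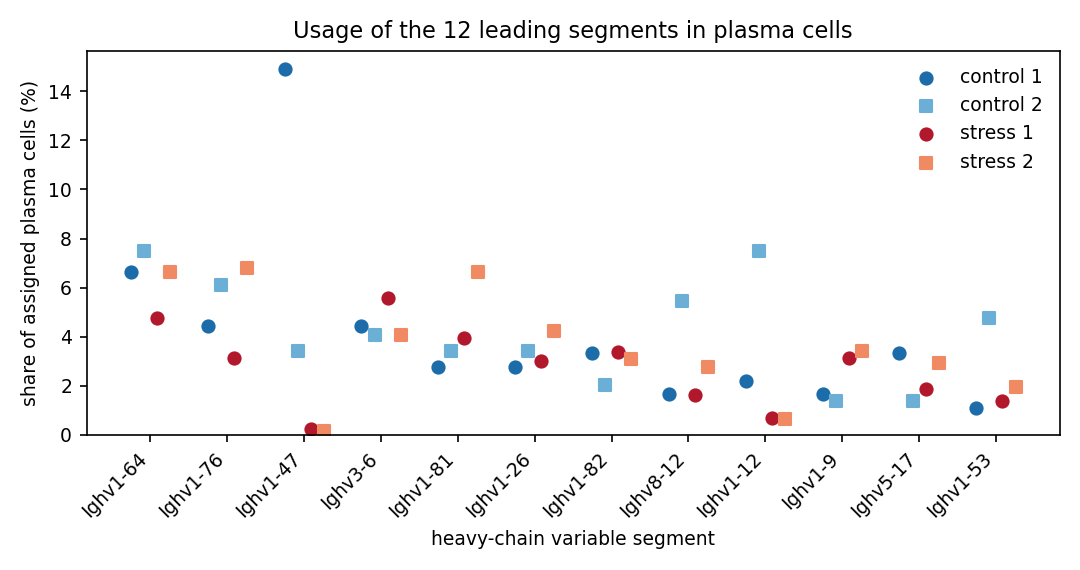
Share of assigned plasma cells that carried each of the 12 most used segments, by library (circles for replicate 1, squares for replicate 2, blue for control and red for stress). Ighv1-47 stands at 14.9% in control 1 and 3.40% in control 2, against 0.232% and 0.162% in the stress libraries.

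Plasma cells with Ighv1-47 were rarer in the stress libraries. The segment was carried by 27 of 181 assigned plasma cells in control 1, 5 of 147 in control 2, 2 of 863 in stress 1 and 1 of 616 in stress 2, or 14.9%, 3.40%, 0.232% and 0.162%. Both controls lay above both stress libraries, and the 2 controls differed from each other by more than the 2 stress libraries did. In a quasi-likelihood test of cells per segment (edgeR), the share fell by 5.35 on the log2 scale (SE 0.989, adjusted p = 1.87e-05). This was the only one of the 72 segments with at least 5 assigned plasma cells to pass an adjusted p under 0.05, 1.39% of those tested, and 11 passed at an unadjusted p under 0.05. The call rests on control 1: without that library the log2 change was -3.93 with an edgeR adjusted p of 0.153, and no segment passed. DESeq2, another count model, gave -5.53 with an adjusted p of 0.117 and no call. The adjusted p over all 15 alternatives for Ighv1-47 ran from 5.47e-10 to 0.153, and 13 of them kept it under 0.05.

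The UMIs of Ighv1-47 were also higher in both controls than in both stress libraries. They numbered 846, 113, 13 and 39 in the plasma cells of control 1, control 2, stress 1 and stress 2. In the fit over all genes of plasma cell sums, where levels are CPM scaled by the trimmed mean of M-values (TMM), Ighv1-47 was at 259, 35.4, 0.977 and 2.37. The log2 change of -6.40 (SE 1.74) did not pass there, with an edgeR adjusted p of 0.492, while DESeq2 gave -6.46 with an adjusted p of 0.000472. Without control 1, which leaves control 2 as the only control library, the log2 change in the edgeR fit over all genes was -4.34. In B cells, Ighv1-47 was assigned to 4.59%, 1.77%, 1.16% and 0.671% of assigned cells, from 5, 5, 3 and 2 cells, and its log2 change of -1.54 (SE 0.921) had an edgeR adjusted p of 0.981. Among T cells, 1 cell of each control and none of the stress libraries was assigned Ighv1-47. The part of free RNA in these few B cell assignments was not tested.

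Most Ighv1-47 plasma cells of control 1 also had the same light chain. Of the 26 with an assigned kappa segment, 21 carried Igkv4-61, 12.1% of the 173 plasma cells with both segments assigned (exact 95% interval 7.67% to 18.0%). In 19 of these 21 cells Igha was the leading constant gene, and in the other 2 it was Ighg1, the constant gene of IgG1. Their heavy-chain counts ran from 4 to 91 segment UMIs with a median of 28. Control 2 held 1 cell with this pair, and the stress libraries held none of 809 and 579 cells. The 5 Ighv1-47 cells of control 2 instead had Igkv8-30 in 3 cases. Without the 21 cells of the pair, 6 Ighv1-47 cells, 3.75%, remained in control 1, and the test gave a log2 change of -3.97 with an edgeR adjusted p of 0.0192. Cells of 1 library are not independent draws, and the test has libraries as its replicates.

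Ighv1-42 rose in the stress libraries by UMIs. It had 0 UMIs in the plasma cells of both controls, 76 in stress 1 and 58 in stress 2, or 0, 0, 5.71 and 3.53 TMM-scaled CPM. Against a floor of 3 counts over the control group, the stress level was at least 9.83-fold higher. In the fit over all genes, its edgeR adjusted p was 0.0449, and in that fit it was the only segment to pass in either direction: 65 of the 185 segments passed the filter on low counts, 1 rose, none fell, and 12 passed at an unadjusted p under 0.05. Over all 9644 genes tested, 46 passed, 0.477%, and 1008 had an unadjusted p under 0.05. With 0 UMIs in both controls, Ighv1-42 passed the filter on low counts only through the stress libraries, where it was high. By cells, 15 of 863 and 6 of 616 assigned plasma cells carried Ighv1-42, 1.74% and 0.974%, against 0 of 328 in the controls. Over the control group, a floor of 3 cells puts the stress share at least 1.55-fold higher, a bound for counting error only. The test of cells per segment did not pass (edgeR adjusted p = 0.215), and B cells carried the segment in all 4 libraries, in 2, 1, 3 and 3 cells. The adjusted p of the gene test ran from 2.74e-10 to 0.130 over 12 alternatives and was under 0.05 in 9 of them. It was 0.0542 without control 1, 0.0639 at a mitochondrial limit of 25% and 0.130 with the replicate number as a block, where Ighv2-5 was the only segment to pass. Ighv2-5 had 0 plasma cell UMIs in both controls, 69 in stress 1 and 1140 in stress 2. It too passed the filter on low counts only through the stress libraries. Ighv1-42 and its neighbour Ighv1-43 share 96.9% of their bases, so the placement of reads between them is uncertain. Ighv1-43 had 16 plasma cell UMIs in control 1 and 0 in the other libraries. By cells, 1 control plasma cell and 0 stress plasma cells were assigned Ighv1-43. Summed over both neighbours, the controls held 16 UMIs and the stress libraries 134, or 2.45 and 4.51 CPM. This is a ratio of 1.84, beside the bound of 9.83 for Ighv1-42 alone, and its control side comes from a segment assigned to 1 cell.

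No other segment passed in plasma cells in either edgeR fit. In the fit over all genes, DESeq2 called 6 of the 65 segments tested, beside 86 of all 9644 genes. Ighv1-42, Ighv1-15, Ighv9-3, Ighv1-55 and Ighv9-1 had higher and Ighv1-47 had lower levels in stress. Like Ighv1-42, Ighv1-15 had 0 plasma cell UMIs in both controls. Both passed the filter on low counts only through the stress libraries, where they were high. Ighv1-12 was at 2.21% and 7.48% of assigned plasma cells in the controls and at 0.695% and 0.649% in the stress libraries, a log2 change of -2.76 (SE 0.906, edgeR adjusted p = 0.0989). Ighv2-5 was carried by no control plasma cell, by 7 cells of stress 1 and by 13 of stress 2 (edgeR adjusted p = 0.215). In the fit over all genes, the smallest p-values among segments with lower levels in stress belonged to Ighv1-5, with a log2 change of -0.997 (edgeR adjusted p = 0.381), and Ighv5-12, with -1.04 (0.481). Outside the rule for named segments, and chosen after their values were seen, Ighv1-55 (log2 change 2.06, edgeR adjusted p = 0.0718) and Ighv9-3 (1.42, 0.0889) came closest to the threshold among the rest. At the mitochondrial limit of 25%, Ighv1-55 was the only segment to pass in that fit, in place of Ighv1-42 (log2 change 2.22, edgeR adjusted p = 0.0415).

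In B cells no segment passed. Of 66 segments with at least 5 assigned B cells, 0 passed, 0% of those tested, and 1 had an unadjusted p under 0.05 in edgeR; DESeq2 called 0, with 0 at an unadjusted p under 0.05. That segment was Ighv14-2, with 0 assigned B cells in both controls, 6 in stress 1 and 3 in stress 2. In the fit over all genes of B cells, 6 segments passed the filter, 0 of them passed the test and 0 had an unadjusted p under 0.05 in edgeR; DESeq2 also called 0. The background was 16 of 10735 genes, 0.149%, and 1188 genes at an unadjusted p under 0.05. The 2 with the smallest p among lower levels were Ighv1-82 (log2 change -1.06, edgeR adjusted p = 0.565) and Ighv1-18 (-0.84, 0.736), and the only one with a higher level was Ighv1-64 (0.09, 0.981).

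Of the 6 segments most used by B cells, 5 were among the 12 most used by plasma cells, all except Ighv1-18. The 6 highest mean shares were 4.30% for Ighv1-82, 4.01% for Ighv1-26, 3.94% for Ighv1-64, 3.86% for Ighv1-9, 3.62% for Ighv3-6 and 3.40% for Ighv1-18. The leaders by library were Ighv1-9 with 7 of 109 assigned B cells in control 1, Ighv1-26 with 17 of 283 in control 2, Ighv1-18 with 13 of 258 in stress 1 and Ighv1-64 with 19 of 298 in stress 2. Of 82 segments compared between plasma cells and B cells with the library as a block, 0 passed in edgeR, 0% of those tested, and 10 had an unadjusted p under 0.05; no other tool was run. The smallest p-values belonged to Ighv8-2, with 0 plasma cells and 5 B cells, and Ighv1-4, with 13 plasma cells and 0 B cells, both at an edgeR adjusted p of 0.374. Ighv1-62-3 (log2 change 2.07) and Ighv1-19 (-1.66) had the next smallest, also with 0.374. Ighv1-19 is the segment of the plasma cell with 1601 UMIs in stress 2, and in that library it was carried by 14 of 298 assigned B cells but by 5 of 616 assigned plasma cells. It also led the T cells there, with 6 of 18 assigned cells. The share of the B cell value that comes from free RNA was not tested.

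By family, segments of Ighv1, the largest mouse family, made up 61.0% ± 4.32 (SD, n = 4) of assigned plasma cells and 60.0% ± 3.39 (SD, n = 4) of assigned B cells, although 46.9% of V genes belong to it. Ighv5 was at 6.08%, 4.76%, 7.995% and 6.49% in plasma cells and at 8.26%, 10.2%, 10.1% and 8.72% in B cells, lower in plasma cells in 4 of 4 libraries. Ighv6 reached 10.2% of plasma cells in control 2 and was between 0.974% and 1.97% in the other libraries. These family shares are given without a test.

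Use along the locus was uneven. Distances were taken from Ighj1, the joining segment nearest to the V genes, which lie 149 to 2570 kb away. V genes more than 1583 kb away, 38 of 113, held 39.2%, 40.1%, 43.9% and 50.6% of assigned plasma cells in control 1, control 2, stress 1 and stress 2. The B cell shares were 39.4%, 33.6%, 31.8% and 37.6%, lower than in plasma cells in all libraries except control 1, where they were nearly equal. Ighv1-64, Ighv1-76 and Ighv1-81 all lie in this distal part.

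**Figure D3:**
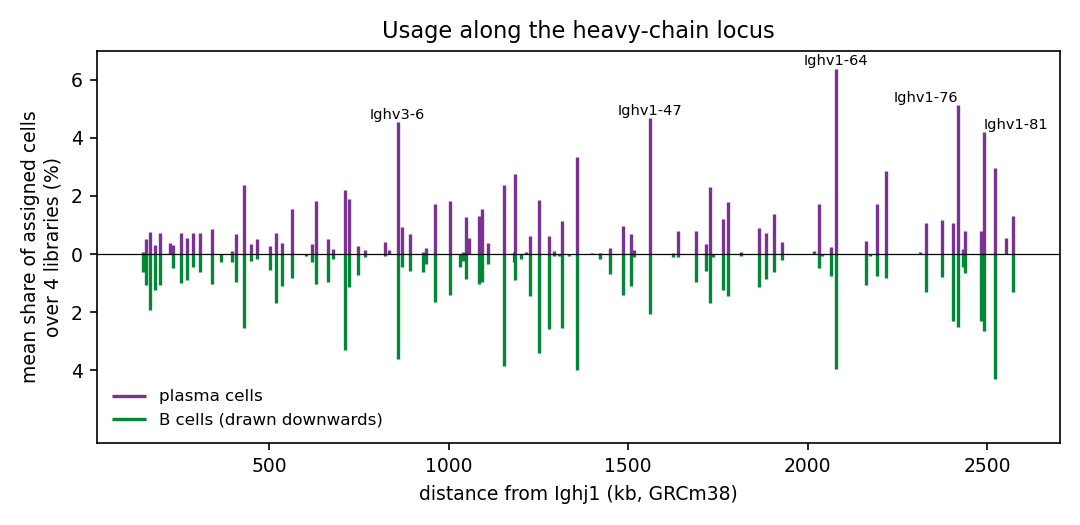
Mean share over the 4 libraries of assigned plasma cells (upwards) and assigned B cells (downwards, both as positive percentages) for each segment, by its distance in kb from Ighj1. Ighv1-64 and Ighv1-76, in the distal part, have the highest plasma cell means at 6.38% and 5.12%.

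Concentration was measured as the chance that 2 cells drawn from a library without replacement share a segment, a measure whose expected value does not depend on the number of cells. In plasma cells it was 3.84% in control 1, 3.11% in control 2, 2.10% in stress 1 and 2.84% in stress 2. Its inverse, the number of equally used segments that would give the same value, was 26.1, 32.1, 47.7 and 35.2. Both controls were above both stress libraries, with means of 3.47% ± 0.512 (SD, n = 2) and 2.47% ± 0.524 (SD, n = 2). The two-sided exact permutation test gave p = 0.333, the smallest it allows, and 0.556 after Benjamini-Hochberg adjustment over 5 exact tests. With all cells thinned to 1000 UMIs the values were 7.51%, 3.22%, 2.47% and 3.71%, and the groups overlapped (exact permutation p = 0.667). Without the leading segment of each library the values were 2.33%, 3.04%, 2.01% and 2.74%, and the groups overlapped.

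B cells were less concentrated. The same chance was 2.19%, 2.00%, 1.70% and 2.01%, with group means of 2.10% ± 0.132 (SD, n = 2) and 1.85% ± 0.225 (SD, n = 2) and overlapping groups (two-sided exact permutation p = 0.667, adjusted 0.833). Plasma cells were above B cells in 4 of 4 libraries, by 0.994 percentage points ± 0.522 (SD, n = 4). The two-sided exact permutation test of the paired values gave p = 0.125, the smallest 4 pairs allow, and 0.556 after adjustment. When only cells with at least 2 UMIs of the leading segment and at least 80% of segment UMIs on it were assigned, plasma cells were above B cells in 3 of 4 libraries, by 1.503 points ± 2.70 (SD, n = 4; exact permutation p = 0.375), from 6 to 26 B cells per library. Drawn down to 109 cells each, plasma cells gave an expected 46.4, 42.0, 50.3 and 45.4 different segments and B cells 46, 51.9, 54.1 and 53.8. The difference in control 1 was 46.4 against 46, so by this count of segments that library did not show the order seen in the other 3.

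**Figure D4:**
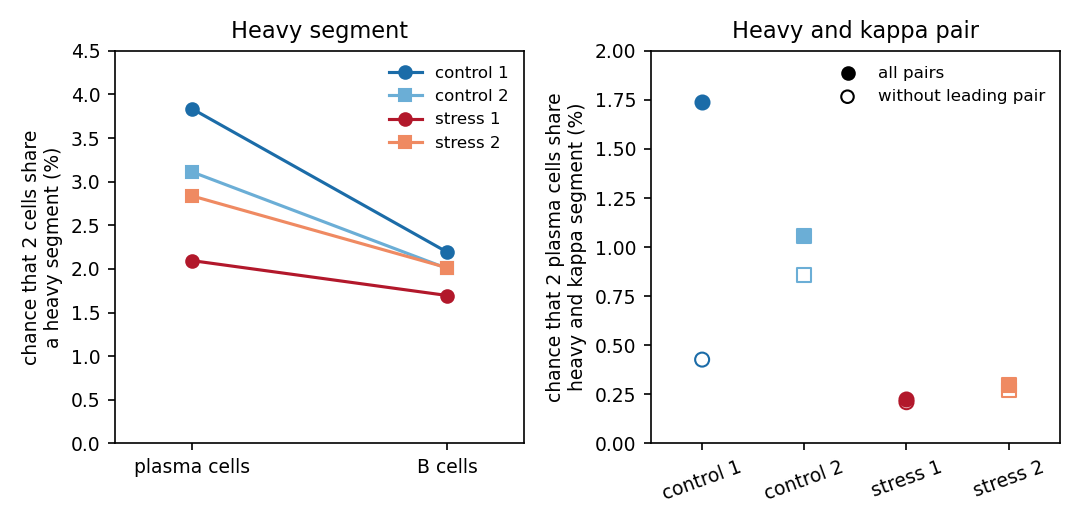
Left, chance in percent that 2 cells of a library share a heavy segment, in plasma and B cells, with a line joining the values of a library. Right, chance in percent that 2 plasma cells share heavy and kappa segment, with all pairs (filled) and without the leading pair of the library (open); both controls lie above both stress libraries in either form.

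Pairs of heavy and kappa segments separated the groups further. The chance that 2 plasma cells share both segments was 1.74% in control 1, 1.06% in control 2, 0.224% in stress 1 and 0.297% in stress 2, from 173, 138, 809 and 579 cells with both assigned. The means were 1.40% ± 0.483 (SD, n = 2) and 0.260% ± 0.0517 (SD, n = 2), and the two-sided exact permutation test gave p = 0.333, the smallest it allows, adjusted 0.556. Without the leading pair of each library the values were 0.427%, 0.859%, 0.210% and 0.274%, still without overlap. When 2 plasma cells shared the heavy segment, their kappa segment also matched in 45.4% and 32.4% of cases in the controls and in 10.9% and 10.3% in the stress libraries.

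Most pairs belonged to a single library. Of 838 pairs, 669 (79.8%) were seen in 1 library, 142 in 2 libraries, 23 in 3 and 4 in all 4 libraries. Ighv1-76 with Igkv5-48 was the pair with most cells, 24, with 4, 2, 7 and 11 in control 1, control 2, stress 1 and stress 2. Ighv6-6 with Igkv14-100 took all 8 Ighv6-6 cells of control 2, and 7 of the 11 Ighv1-12 cells of that library carried Igkv14-111. In the stress libraries the leading pairs were smaller in percent: Ighv1-81 with Igkv1-110 took 12 of 809 cells of stress 1 (1.48%), and Ighv1-76 with Igkv5-48 took 11 of 579 cells of stress 2 (1.90%). Ighv1-81 with Igkv1-110 and Ighv1-26 with Igkv12-46 were seen in both stress libraries, with 12 and 7 cells and with 7 and 8 cells, and in no control cell. Over the control group, 0 of 311 cells allows a share of up to 0.965%, beside 1.37% and 1.08% of the 1388 stress cells. These pairs were picked from a long list after their values were seen and were not tested.

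The similarity of whole segment profiles was described with the Morisita index, which is near 1 when 2 libraries are as alike as draws from 1 pool and 0 when they share no segment. In plasma cells it was 0.729 between the controls, 0.895 between the stress libraries and 0.604 to 0.772 between a control and a stress library. In B cells the 6 pairs of libraries gave 0.895 to 1.03. Control 1 had the lowest values among plasma cells, the library in which Ighv1-47 took 14.9% of cells.

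The amount of segment RNA per cell also differed between segments. Plasma cells assigned to Ighv1-76 had medians of 23, 19, 16 and 29 UMIs of it in control 1, control 2, stress 1 and stress 2, above the medians of 8.5, 6, 4 and 9 over all plasma cells in every library. Ighv1-64 cells had medians of 10.5, 6, 5 and 15. Ighv1-12 cells had 6, 3, 3.5 and 17. Assignment by cells therefore gives Ighv1-76 a smaller part than its UMIs do: it held 6.84%, 10.6%, 7.98% and 11.5% of segment UMIs.

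Among constant genes, which are joined to the rearranged segment in the transcript, Igha led in 95.1%, 95.5%, 95.2% and 96.0% of plasma cells. None of the 8 heavy-chain constant genes passed in either direction in plasma cells in edgeR. An unadjusted p under 0.05 was found for 2 of them, beside 1008 of all 9644 genes. Igha had a log2 change of 0.08, Ighm, encoding IgM, -0.13, Ighd, encoding IgD, -0.56, Ighg2b -0.25, Ighg2c 0.12 and Ighg3 0.14. Ighg1 was at 1862 and 2952 TMM-scaled CPM in the controls and at 670 and 930 in the stress libraries (log2 change -1.59, edgeR adjusted p = 0.0620). Ighe, encoding IgE, was at 0 in both controls and at 1.65 and 1.83 in the stress libraries (edgeR adjusted p = 0.135).

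Of the 4 light-chain constant genes, Iglc3, a lambda constant gene, fell in plasma cells, from 4823 and 6581 TMM-scaled CPM in the controls to 1514 and 1069 in the stress libraries (log2 change -2.14, SE 0.228, edgeR adjusted p = 0.0113). Iglc2 was at 1901 and 1342 against 2666 and 5239 (log2 change 1.29, edgeR adjusted p = 0.356). These 2 genes are near-identical copies, so the split of reads between them is uncertain. Igkc, the kappa constant gene, and Iglc1 had log2 changes of -0.03 and 0.11.

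Other genes of the pathway did not pass. Of 20 genes for antibody assembly and secretion, 15 transcription factors acting at the locus and 10 genes of recombination and mutation, 20, 15 and 4 were tested in plasma cells, and 0 passed in either direction in edgeR, with 0, 1 and 0 at an unadjusted p under 0.05. Their median log2 changes were 0.10, 0.13 and 0.00, beside 0.00 over all 9644 genes. Pou2af1, a coactivator of immunoglobulin genes, had the smallest p, with 172 and 145 TMM-scaled CPM in the controls and 126 and 116 in the stress libraries (edgeR adjusted p = 0.327). In B cells 20, 15 and 7 of these genes were tested and 0 passed in edgeR, with 3, 4 and 4 at an unadjusted p under 0.05. Over all 10735 genes tested in B cells, 1188 had an unadjusted p under 0.05. Prdm1, which drives plasma cell formation, was at 2.79 and 1.75 in control and 4.76 and 6.25 in stress B cells (edgeR adjusted p = 0.232). The 8 germinal centre markers summed to 385 and 209 CPM in B cells of the controls and to 663 and 597 in those of the stress libraries, and the part of such cells in the B cell values was not tested. The constant genes of B cells gave 0 calls among 7 tested, with 2 at an unadjusted p under 0.05, and Igha had a log2 change of 2.05 there (edgeR adjusted p = 0.154).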

How the data were processed

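Count matrices, barcodes and gene names were used as the authors deposited them: raw UMI counts per gene and barcode, mapped to mm10 with Cell Ranger 5 or 5.0 per the submitters' processing notes, while the file headers carry software version 3.1.0. Neither the read end of the kit nor the treatment of reads that fit several segments is stated in the labels or headers. Barcodes under 200 genes or under 500 UMIs, or with over 10% of UMIs from mitochondrial genes, were removed. Scrublet (scanpy 1.11.5), run per library, marked under 0.5% of cells at its automatic threshold, so the 52, 236, 554 and 136 cells with the highest scores, the expected share at 0.8% per 1000 barcodes, were left out. A total of 19450 cells remained. Free-RNA T cells had at least 2 UMIs of Cd3d, Cd3e and Cd3g, none of Cd79a and Cd79b and little Jchain.

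UMIs summed per library and cell type, and numbers of cells per segment, were tested with edgeR 4.0.16 (quasi-likelihood, Benjamini-Hochberg adjustment over all genes or segments tested); DESeq2 1.42.0 was an alternative. Cell numbers per segment had the assigned cells as offset and a single spread for all segments. Intervals are exact (Clopper-Pearson). Intervals and floors of 3 counts cover counting error only. Coordinates, gene types and sequences came from GENCODE vM21 (GRCm38); alignments used Biopython 1.88. Scripts were tested on simulated data. Of 10 segments changed 8-fold, the usage test called 4 in plasma cells and 7 in B cells, with 0 and 2 false calls. Of 100 genes changed 2-fold, the gene fit called 29 in plasma cells and 32 in B cells. Of 100 changed 4-fold it called 99 and 97. The simulation used a fixed spread between libraries, not one estimated from these data. It changed only genes or segments above a limit on counts. How often changes in rarer or more variable segments would be called was not tested.

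Named were the 12 segments with the highest mean share in plasma cells, the 6 highest in B cells, each library's leader, and per comparison up to 5 passing segments per direction or else the 2 with the smallest p. Of pathway lists, constant genes and genes with the smallest p were named. Members and lists were chosen with earlier results of these data known. Left out of use were promoters and proteins of the segments, not analysed here. One pathway gene is not reported here.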

Additional observations from a re-analysis of the deposited data

Results flagged for a closer look

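T cells, which enter no comparison between the groups, carried segment UMIs more often in both stress libraries than in either control. The share was 1.62% in stress 1 and 2.88% in stress 2, above the higher control value of 1.18%. The T cells of stress 2 were the deepest and those of stress 1 the shallowest. In stress 1 the leading segment of these T cells was Ighv1-82, with 3 of 24 assigned cells, and in stress 2 Ighv1-19, with 6 of 18. Both were the segments with most UMIs in the plasma cells of the same library, 820 and 2296. No group has 4 or more libraries, so a search for single libraries that stand apart within a group was not made.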

How the results depend on the processing

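The count of called genes in plasma cells, 46, was 86 with DESeq2, 381 without the filter on low counts, 7 with a replicate block and 160 to 172 when a library was left out. In B cells the count of 16 became 55 with DESeq2, 431 without the filter, 7 at the 25% mitochondrial limit, 1 with doublets kept, 5 with a replicate block and 34 to 754 when a library was left out. Among segments in the plasma cell fit, the count of 1 of 65 tested was 6 of 65 with DESeq2 and 3 of 65 without TMM. Beside these stood 86 and 61 of all 9644 genes. Without the filter it was 15 of 110 segments, beside 381 of all 15941 genes. The count of segments also moved when a library was left out, which leaves 1 library in a group. Segment usage in plasma cells gave 1 call, 0 with DESeq2 and 0 to 2 when a library was left out. Usage in B cells and between the cell types gave 0 calls under each of the 13 alternatives run for either. Replicate numbers are shared between the groups but no label ties them to an animal or day. Samples with the same number correlated at -0.0779 (plasma) and -0.0193 (B) in their deviations from group means. With the block, Ighv1-47 usage in plasma cells had an edgeR adjusted p of 0.000315. In the fit over all genes of plasma cells with the block, Ighv1-42 had an edgeR adjusted p of 0.130. Ighv2-5, with 0 plasma cell UMIs in both controls, was called in its place. Thinned to 1000 UMIs, the stress minus control difference of the sharing chance was -2.28 points in plasma cells, with overlapping groups, and -0.761 in B cells, and the plasma minus B difference was 1.82. Without the leading segment of each library, an alternative chosen after seeing the data like all that leave out a leading segment, pair or cell, the plasma difference was -0.306. With strict assignment the B difference was 1.34 and the plasma minus B difference 1.503, from 6 to 26 cells per library. With a library left out, the plasma difference ran from -1.38 to -0.638, and the difference in the segment share of plasma UMIs from -0.0198 to 0.0170. The cause of these changes was not tested; a fit with fewer libraries or genes differs by construction.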
